A study of Homo sapiens with 6 samples.

Results

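The SPARC family is a group of secreted proteins of the extracellular matrix, and 8 of its genes were followed here in HEK293T cells: SPARC, SPARCL1, SPOCK1, SPOCK2, SPOCK3, SMOC1, SMOC2 and FSTL1. They are 8 of the 56832 gene symbols in the count table, taken by name. SPARC was selected on its rise in the knockout libraries, that is on its counts in this same comparison, so its own values are a description with no test, while the other 7 entered as its relatives. The samples were 3 libraries of wild-type HEK293T cells, a human embryonic kidney line that carries the SV40 large T antigen, and 3 libraries of HEK293T cells labelled SMARCA3 KO. SMARCA3 is another name for HLTF, a chromatin translocase and ubiquitin ligase that the series title links to histone H3 ubiquitination and H3K9me3. All 6 libraries were made from poly(A)-selected RNA of cells grown in the same serum-containing medium, and no other treatment is given. Nothing in the labels says how the knockout was made, whether the knockout cells are 1 clone, or whether replicates were separate cultures, so every p-value here reflects the spread among these 6 libraries alone, and that spread may be purely technical.

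Matricellular proteins are secreted into the matrix to regulate how cells adhere, migrate and respond to growth factors, without being part of its load-bearing scaffold. The members share a follistatin-like domain and an extracellular calcium-binding domain with EF hands. SPARC (osteonectin) binds collagens and helps basement membranes and fibrils to assemble, and SPARCL1 (hevin) is its closest relative, known from astrocytes and vessels. SPOCK1, SPOCK2 and SPOCK3 encode the testicans, proteoglycans that add a thyroglobulin domain and act on matrix proteases. SMOC1 and SMOC2 are modular calcium-binding proteins, of which SMOC1 restrains BMP signalling in eye and limb, and FSTL1 is a secreted glycoprotein that binds BMP4 and is needed for lung and airway development.

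The bases before the transcription start are shown for SPARC, SPOCK3 and FSTL1, the member picked for its rise and the members with the lowest and the highest tested fold change that passed the test, as far as the RefSeq promoter table (GRCh38.p14) holds them. The table held 7 of the 8 members. Each line gives the 250 bases before the RefSeq start, 5′ to 3′ on the gene's strand, which is the minus strand for all of them. Capitals mark GGAGG and its complement CCTCC, the unit of the GGA repeat known from the SPARC promoter.
SPARC: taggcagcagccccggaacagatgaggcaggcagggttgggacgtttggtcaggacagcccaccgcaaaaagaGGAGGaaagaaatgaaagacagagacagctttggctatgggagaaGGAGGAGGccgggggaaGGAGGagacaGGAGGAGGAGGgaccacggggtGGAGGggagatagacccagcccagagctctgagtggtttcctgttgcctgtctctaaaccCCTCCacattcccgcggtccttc
SPOCK3: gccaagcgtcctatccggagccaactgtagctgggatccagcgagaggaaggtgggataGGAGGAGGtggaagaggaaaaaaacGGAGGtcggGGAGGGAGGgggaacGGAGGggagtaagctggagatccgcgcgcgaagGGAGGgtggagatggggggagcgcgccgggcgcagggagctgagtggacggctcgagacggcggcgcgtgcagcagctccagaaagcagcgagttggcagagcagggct
FSTL1: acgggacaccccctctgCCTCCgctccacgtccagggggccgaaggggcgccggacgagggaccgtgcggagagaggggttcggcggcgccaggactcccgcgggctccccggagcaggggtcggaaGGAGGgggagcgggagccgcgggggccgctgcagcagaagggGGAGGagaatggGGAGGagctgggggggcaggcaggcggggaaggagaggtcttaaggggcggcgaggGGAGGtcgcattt
The SPARC window lies at chr5:151686916-151687165, the SPOCK3 window at chr4:167234495-167234744 and the FSTL1 window at chr3:120450993-120451242. Some transcripts of the GENCODE annotation start further upstream. The annotated genes begin at 151687165 for SPARC, the upstream end of its window. For SPOCK3 and FSTL1 they begin beyond their windows, at 167234796 and 120451253. Each window thus lies within the annotated gene.

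The SPARC window held GGAGG 9 times, 8 times on the gene's strand and 1 time on the other strand, with overlapping copies counted. At least as many were found in 1.10% of the 35116 windows of this length in the table, and 72.4% of windows held at least 1. The SPOCK3 window, of a gene that fell, held 7, a number reached by 2.98% of windows, and the FSTL1 window held 5. The SPOCK3 start shown is the one listed first in the table, the windows of its other starts held 5 and 2, and the SMOC2 window held 7 as well. The repeat was thus present in the printed windows of SPARC, SPOCK3 and FSTL1, and its relation to their mRNA levels was not tested. The windows differed in CpG, the dinucleotide at which DNA is methylated: 7 in SPARC, 21 in SPOCK3 and 24 in FSTL1, against a median of 11 over all windows. On both strands, a TATAAA box was absent from these 3 windows and present in 10.7% of all windows, while SMOC1 and SPARCL1 each had 1. The GC box GGGCGG occurred 1 time in FSTL1 and 0 times in SPARC and SPOCK3, and in 42.6% of all windows. A CCAAT box (32.0% of all windows), an AP-1 site TGANTCA (6.57%) and an E-box CACGTG (6.34%) were not found in these 3 windows. Motifs were counted independently of each other. A match is a run of letters and not a site of binding, and a missing match says only that these letters are not in this window.

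Levels are given as CPM, a gene's counts per 1000000 counts of all tested genes in the library, after TMM scaling. Total counts ran from 33125811 to 41593655 per library, with the 3 knockout libraries the 3 shallowest. Log2 CPM correlated across genes at 0.994 to 0.996 between libraries of a group. A floor of 3 counts corresponded to 0.0723 to 0.0909 CPM, and this and the intervals on counts cover counting error only. HLTF mRNA was present in all libraries at 215, 191 and 195 CPM in the wild-type libraries and at 141, 140 and 149 CPM in the knockout libraries, with a log2 fold change of -0.48 (edgeR adjusted p = 4.65e-05, SE 0.05) beside a median of -0.50 over its 40 nearest expressed genes. With that median removed the value was 0.034 (edgeR adjusted p = 0.656). Counts per gene do not show whether its sequence was altered. Of 10 renal and neural genes of the HEK293 line, 9 reached 1 CPM in some library, among them VIM and CDH2, while PAX8 stayed below it. The genes of the list did not move as 1: PAX2 went from a range of 4.12 to 5.29 CPM over the wild-type libraries to 10.7 to 10.8 CPM over the knockout libraries, while EYA1 ranged over 12.5 to 15.4 CPM and then 3.50 to 3.94 CPM, and NEFM over 31.8 to 37.5 CPM and then 0 to 0.121 CPM, in the same order of groups. The summed level of the 10 was 441.6 to 470.4 CPM in wild-type and 305.3 to 308.5 CPM in the knockout, and its part in the results below was not tested.

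SPARC had the largest rise of the members, and it is the one chosen for that rise. SPARC stood at 2.05, 2.23 and 1.84 CPM in the wild-type libraries and at 14.6, 15.5 and 15.9 CPM in the knockout libraries (replicates 1 to 3 of each). Every knockout library lay far above every wild-type library, and the spread inside each group was small beside the gap. The group means were 2.04 ± 0.199 and 15.3 ± 0.687 CPM (SD, n = 3), which is 7.50-fold and a log2 fold change of 2.91 (SE 0.10). Among the 1914 genes that were called higher with at least 5 CPM in the knockout, SPARC ranked 13 by log2 fold change. SPARC was chosen for this rise, so its rank and its place among these genes are descriptions only. The counts behind these values were 242 in the wild-type group and 1595 in the knockout group.

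The SPARC gene spans 151661096 to 151687165 of chromosome 5, minus strand (GENCODE 29, GRCh38). Over the 40 expressed genes nearest to it the median log2 fold change was 0.03, and 8 were called higher and 6 lower, so the genes around it showed no such shift as a group. Its exons share 381 bases with the antisense gene CLMAT3 on the other strand, and the sources used here do not say whether strand was used in counting. CLMAT3, found in the table under the synonym CTB-113P19.1 that RefSeq gives, had 0 counts in all 6 libraries. In bulk RNA, more cells of a type and more mRNA per cell cannot be told apart.

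SPARC is abundant in fibroblasts and endothelial cells, so markers of these cells were read beside it. Of 9 fibroblast and mesenchymal markers, only COL1A1 reached 1 CPM in any of the 6 libraries, DCN had 0 counts in all of them, and the summed level of the list was 7.95 to 9.96 CPM in wild-type and 7.33 to 8.27 CPM in the knockout. Of 6 endothelial markers, including PECAM1, CDH5 and VWF, 0 reached 1 CPM, and the summed level was 0.627 to 0.770 CPM in wild-type and 0.407 to 0.970 CPM in the knockout. For 5 leukocyte and macrophage markers the sum was 0.747 to 1.10 CPM in wild-type and 0.879 to 1.30 CPM in the knockout, and again 0 reached 1 CPM. COL1A1, a fibrillar collagen chain of fibroblasts and bone cells, stood at 5.90, 7.34 and 7.55 CPM in the wild-type libraries and at 6.49, 5.81 and 5.82 CPM in the knockout libraries. The part of other cell types in the level of SPARC was not tested.

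**Figure D1:**
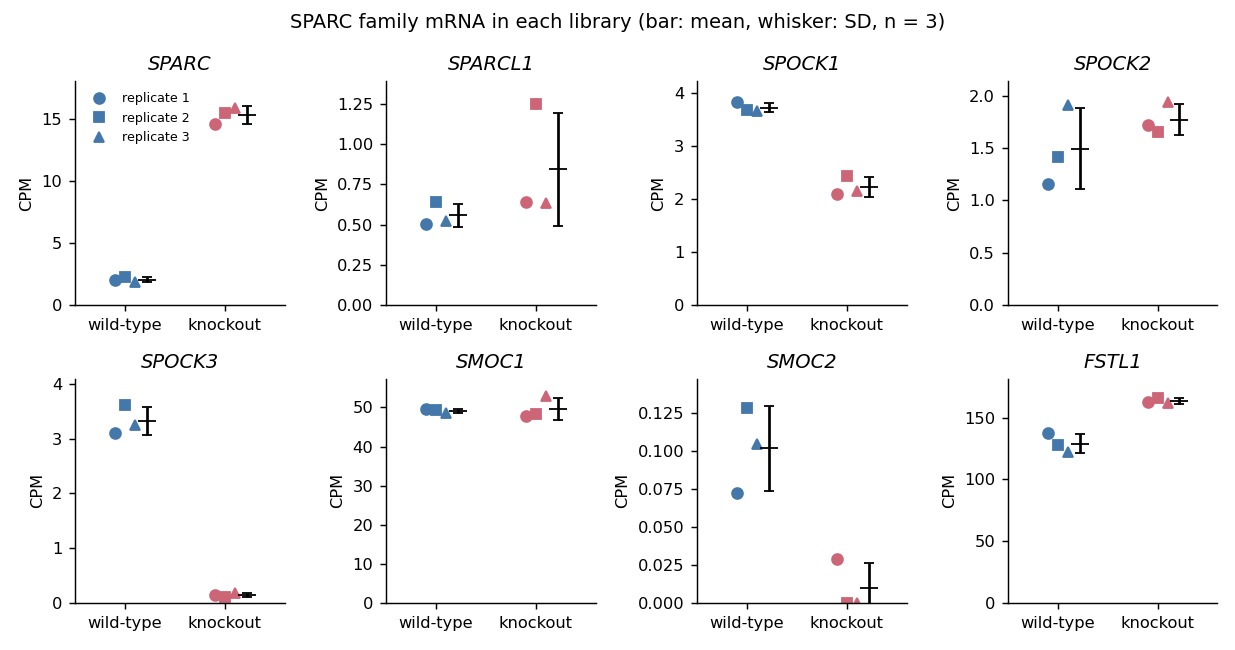
CPM of each member in each library, 1 panel per gene with its own linear axis from 0; symbols are replicates 1 to 3, bars the mean and whiskers the SD (n = 3), cut off at 0. The groups lie apart for SPARC, SPOCK1, SPOCK3, SMOC2 and FSTL1 and overlap for SPARCL1, SPOCK2 and SMOC1.

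Of the 7 relatives, 6 had enough counts to be tested and SMOC2 had not. FSTL1 rose, SPOCK1 and SPOCK3 fell, and SPARCL1, SPOCK2 and SMOC1 did not pass the test. These calls are an adjusted p under 0.05 in edgeR's quasi-likelihood test, adjusted over all 18061 genes tested. By the same test, 31.8% of all tested genes were called, 14.0% higher and 17.7% lower, and a count of 3 called relatives among 6 tested is not read as a result about the family. The ranges of the groups lay apart for 5 of the 8 members, SPARC included, and for 45.6% of all tested genes.

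SPARCL1, the closest relative of SPARC, was nearly silent in both groups. SPARCL1 stood at 0.506, 0.642 and 0.525 CPM in the wild-type libraries and at 0.641, 1.25 and 0.636 CPM in the knockout libraries (replicates 1 to 3 of each). Knockout replicate 2 stood above the other libraries, and the groups overlapped. The log2 fold change was 0.61 with a 95% interval of -0.05 to 1.27 (edgeR adjusted p = 0.146), and it was 0.20 without knockout replicate 2. The interval excludes a rise of the size seen in SPARC and does not show that SPARCL1 stayed the same. SPARCL1 lies on chromosome 4 between 87473335 and 87531061, where its 40 neighbours had a median of -0.16, with 15 called lower and 1 higher. With that median removed the log2 fold change of SPARCL1 was 0.79 and was not called (edgeR adjusted p = 0.0683).

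The testican genes are described in turn. SPOCK3, which encodes testican 3, an inhibitor of the membrane-bound matrix metalloproteinases, fell the most of the members tested. SPOCK3 stood at 3.11, 3.62 and 3.25 CPM in the wild-type libraries and at 0.146, 0.109 and 0.182 CPM in the knockout libraries (replicates 1 to 3 of each). The wild-type libraries held 394 counts in all and the knockout libraries 15, with 4 to 6 in each, so the knockout level was just above the floor. The ratio of wild-type to knockout was 23.1, with a 95% counting interval of 13.8 to 41.6. The log2 fold change was -4.50 (edgeR adjusted p = 1.19e-07, SE 0.22), and knockout was lower in each of its 3 libraries than any wild-type library. The gene passed the filter on low counts through its wild-type libraries alone, and its call is not used as support for any statement on the family.

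SPOCK3 spans chromosome 4 from 166733384 to 167234796 on the minus strand. Over the 40 expressed genes nearest to it the median log2 fold change was -0.23, and 24 were called lower and 2 higher. The shares over all tested genes were 17.7% lower and 14.0% higher. SPOCK3 itself was at -4.25 with the neighbour median removed. With no filter on low counts, so that no gene enters by its level in 1 group, the log2 fold change of SPOCK3 was -4.51.

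SPOCK1, which encodes testican 1, a proteoglycan that inhibits cathepsin L and is known from brain, fell by less. SPOCK1 stood at 3.83, 3.70 and 3.67 CPM in the wild-type libraries and at 2.10, 2.44 and 2.15 CPM in the knockout libraries (replicates 1 to 3 of each). Wild-type replicates were almost level with each other and all above the knockout libraries. The log2 fold change was -0.74 (edgeR adjusted p = 0.000669, SE 0.12), a 1.67-fold fall, beside a neighbour median of -0.08 on chromosome 5. SPOCK1 lies between 136975298 and 137598379 on the same chromosome as SPARC.

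SPOCK2 encodes testican 2, which counteracts the inhibition of membrane-bound metalloproteinases by other testicans. SPOCK2 stood at 1.16, 1.41 and 1.91 CPM in the wild-type libraries and at 1.72, 1.66 and 1.94 CPM in the knockout libraries (replicates 1 to 3 of each). The wild-type libraries scattered widely and their range covered most of the knockout values. The log2 fold change was 0.25 with a 95% interval of -0.17 to 0.67 (edgeR adjusted p = 0.355), and it was 0.10 without wild-type replicate 1 and 0.47 without wild-type replicate 3. That interval does not reach the interval of SPOCK1, -0.995 to -0.485. SPOCK2 lies on chromosome 10 between 72059035 and 72089032, where its neighbours had a median of -0.09.

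SMOC1 was well expressed and nearly level between the groups. SMOC1 stood at 49.7, 49.2 and 48.6 CPM in the wild-type libraries and at 47.8, 48.3 and 52.8 CPM in the knockout libraries (replicates 1 to 3 of each). The groups overlapped, with knockout replicate 3 the highest library. The log2 fold change was 0.01 with a 95% interval of -0.10 to 0.13 (edgeR adjusted p = 0.876), an interval that leaves room for small differences only. SMOC1 lies on chromosome 14 between 69854131 and 70032366.

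SMOC2, the paralog of SMOC1, was close to absent. Wild-type replicates 1 to 3 had 3, 5 and 4 counts and knockout replicates 1 to 3 had 1, 0 and 0. The wild-type to knockout ratio was 10.5 with a 95% counting interval of 1.56 to 450.5, which covers counting error only. The gene was too low to be tested. With no filter on low counts its log2 fold change was -3.02 and did not pass (edgeR adjusted p = 0.0512). SMOC2 lies near the end of chromosome 6, between 168441151 and 168673445. There 27 of 30 expressed neighbours were called higher and 1 lower, with a median of 0.31, where 14.0% of all tested genes were called higher. The few counts of SMOC2 are too low to set it against them.

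FSTL1, the most abundant member, rose by a modest amount. FSTL1 stood at 138, 128 and 122 CPM in the wild-type libraries and at 163, 166 and 162 CPM in the knockout libraries (replicates 1 to 3 of each). All knockout libraries lay above all wild-type libraries and close to each other. The log2 fold change was 0.34 (edgeR adjusted p = 0.000329, SE 0.05), a 1.27-fold rise, and its neighbours on chromosome 3 had a median near 0 (-0.0017). FSTL1 lies between 120392293 and 120451253. Its exons overlap the microRNA gene MIR198, listed with 0 counts in all libraries, on the same strand, and the pseudogene AC063952.1 on the other strand by 316 bases.

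**Figure D2:**
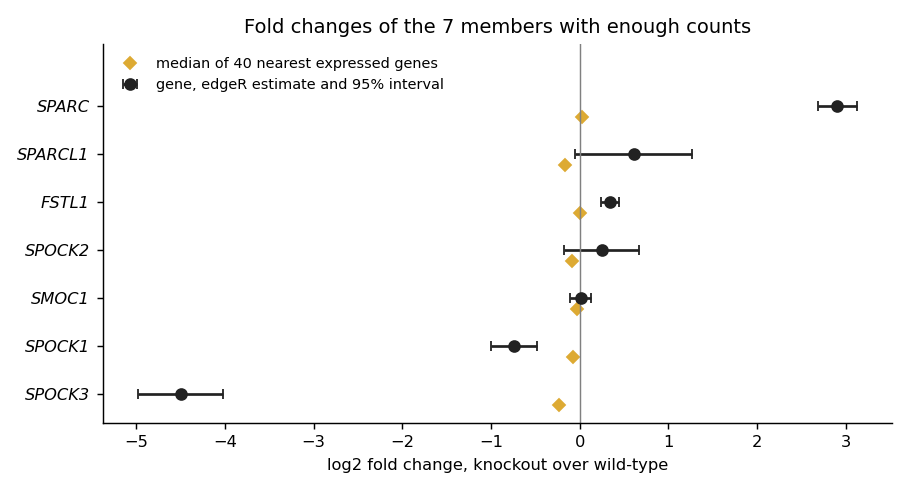
Log2 fold change of the 7 members with enough counts (knockout over wild-type) with the 95% interval of the edgeR fit, and as diamonds the median log2 fold change of the 40 nearest expressed genes. SPARC at 2.91 and SPOCK3 at -4.50 lie far from their neighbour medians of 0.03 and -0.23; the value of SPARC is a description, since the gene was chosen for it.

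To compare members with each other, CPM was divided by the length of the merged exons of each gene in kb. In wild-type cells FSTL1 (14.8 ± 0.918 CPM per kb) and SMOC1 (11.3 ± 0.123 CPM per kb) stood far above the rest (SD, n = 3). They were followed by SPOCK3 at 0.742, SPOCK1 at 0.600, SPARC at 0.422, SPOCK2 at 0.227, SPARCL1 at 0.160 and SMOC2 at 0.025 CPM per kb. Of the neighbours in this order, only SPOCK2 and SPARCL1 had overlapping ranges. SPARC was thus in the middle of the family in wild-type cells.

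In the knockout SPARC came next at 3.17 ± 0.142 CPM per kb, after FSTL1 at 18.7 ± 0.240 and SMOC1 at 11.4 ± 0.627 CPM per kb (SD, n = 3). SPOCK3, the third of the family in wild-type, came seventh at 0.032 CPM per kb. SPOCK1 (0.359), SPOCK2 (0.270) and SPARCL1 (0.242 CPM per kb) lay between them, and again only SPOCK2 and SPARCL1 overlapped as neighbours. The summed level of the 8 members was 28.2 ± 0.985 CPM per kb in wild-type and 34.2 ± 0.713 CPM per kb in the knockout. Of the difference of 5.95 CPM per kb, FSTL1 made up 3.95 and SPARC 2.75, while SPOCK3 differed by -0.71 and SPOCK1 by -0.24. SPARC made up 1.49% ± 0.128 of the summed level in wild-type and 9.27% ± 0.225 in the knockout, and SPOCK3 2.63% ± 0.246 and 0.095% ± 0.023 (SD, n = 3). Merged exons include rarely used ones, so levels of genes with many transcripts are understated.

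**Figure D3:**
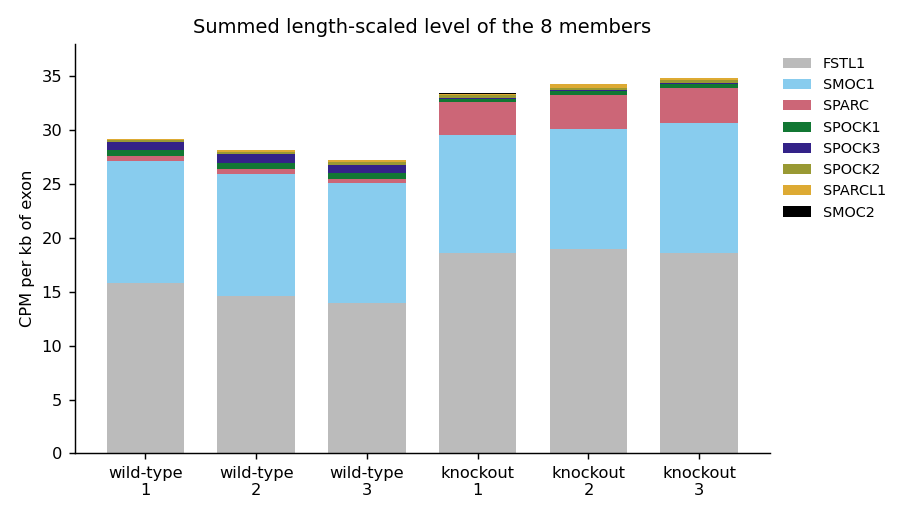
Stacked bars from 0 of the length-scaled level (CPM per kb of merged exon) of the 8 members in each library. FSTL1 and SMOC1 fill most of each bar, and SPARC is the next-largest part in the 3 knockout libraries.

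Genes tied to the family by function were read as 5 lists. Their counts are set beside the 31.8% of all tested genes that were called and the median log2 fold change of 0.0031 over all tested genes, and no list was tested as a set. Among 18 other matricellular genes, 10 had enough counts, of which 1 rose, 1 fell and 8 were not called, with a median of -0.12. TNC, which encodes the adhesion-modulating glycoprotein tenascin C, stood at 3.71, 3.49 and 3.72 CPM in the wild-type libraries and at 14.2, 15.6 and 13.9 CPM in the knockout libraries (replicates 1 to 3 of each). The difference was 2.00 on the log2 scale (SE 0.09, edgeR adjusted p = 5.93e-08). CYR61 (CCN1), a growth factor-inducible integrin ligand, fell by 0.48 on the log2 scale (edgeR adjusted p = 0.00782). Without wild-type replicate 1 or without knockout replicate 3, 2 genes of the list were called lower. Thrombospondin genes THBS1, THBS3 and THBS4 and CTGF (CCN2) were not called, with log2 fold changes of -0.72, 0.12, -0.25 and -0.24.

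Of 14 other genes for proteins with a follistatin-type domain, 10 were tested, with 4 lower, 0 higher and 6 not called and a median of -0.32. Of all tested genes, 17.7% were called lower and 14.0% higher. With so few genes, the absence of higher calls is not read as a result about the list. One of the 4, TMEFF2, had a wild-type mean of 0.983 CPM and a knockout mean of 0.200 CPM, the latter under the 0.267 CPM that the filter on low counts asked for in 3 libraries. No gene of the list was higher at an unadjusted p under 0.05 in edgeR either (0), and DESeq2 and limma-voom also called 0 higher. HTRA3, a secreted serine protease, went from a mean of 2.55 ± 0.043 to one of 0.538 ± 0.139 CPM (SD, n = 3), which is -2.24 on the log2 scale (SE 0.18, edgeR adjusted p = 5.88e-06). FSTL4 went from a mean of 1.08 ± 0.190 to one of 0.509 ± 0.116 CPM, which is -1.09 on the log2 scale (edgeR adjusted p = 0.00486). The activin antagonist FST and its relative FSTL3 were not called, at -0.44 and 0.18 on the log2 scale. With at least 1 CPM required in 3 libraries, 1 gene of the list was called lower.

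Ligands that SPARC binds moved in both directions. Of 14 collagen, growth factor and matrix genes, 11 were tested, 3 rose, 3 fell and 5 were not called, with a median of -0.17. COL4A1 and COL4A2, the paired chains of the basement membrane collagen whose network SPARC helps to assemble, fell by 0.79 and 0.82 on the log2 scale (edgeR adjusted p = 2.74e-06 and 2.03e-05). COL4A1 stood at 42.7, 43.1 and 46.4 CPM in the wild-type libraries and at 24.7, 26.3 and 25.5 CPM in the knockout libraries (replicates 1 to 3 of each), with no overlap. COL2A1, the cartilage collagen, went from 25.7 ± 0.322 to 0.454 ± 0.088 CPM (SD, n = 3). COL5A1, a fibril-nucleating collagen chain, rose from a mean of 11.2 ± 0.382 to one of 19.1 ± 0.741 CPM, which is 0.76 on the log2 scale (edgeR adjusted p = 1.20e-05), and PDGFA, a platelet-derived growth factor chain, by 0.52. COL1A1 (-0.20) and VEGFA (0.07 on the log2 scale) were not called.

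Of 16 proteases, inhibitors and crosslinkers linked to the family, 13 were tested, 3 rose, 2 fell and 8 were not called, with a median of 0.0074. CTSL, the cathepsin L that testican 1 inhibits, stood at 75.6, 71.4 and 70.4 CPM in the wild-type libraries and at 43.8, 42.6 and 46.0 CPM in the knockout libraries (replicates 1 to 3 of each). Its log2 fold change was -0.72 (edgeR adjusted p = 2.55e-06, SE 0.05), in the same direction as that of SPOCK1. TGM2, a transglutaminase that crosslinks SPARC, had a log2 fold change of -0.94 (edgeR adjusted p = 0.0104). MMP16, a membrane-bound metalloproteinase, rose by 0.36 on the log2 scale (edgeR adjusted p = 0.00656), while MMP14 (-0.29) and MMP2 (0.0074) were not called. The inhibitors TIMP3 and TIMP2 rose by 0.31 and 0.21 on the log2 scale beside neighbour medians of 0.30 and 0.27, and with neighbour medians removed 1 gene of the list was called higher.

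In the BMP pathway, which SMOC1 and FSTL1 restrain, 20 of 21 genes were tested, 6 rose, 4 fell and 10 were not called, with a median of 0.03. BMP2 rose from a mean of 7.03 ± 0.529 to one of 12.9 ± 0.862 CPM (SD, n = 3), which is 0.88 on the log2 scale (SE 0.09, edgeR adjusted p = 2.89e-05). The ligand BMP4, which FSTL1 binds, fell from 8.71 ± 0.281 to 6.99 ± 0.344 CPM (edgeR adjusted p = 0.0124). The activin receptor gene ACVR2B rose by 0.55 where its neighbours had a median of 0.23, and ID4, a helix-loop-helix inhibitor, by 0.65 on the log2 scale, whereas ID2 and SMAD1 fell by 0.30 and 0.34. Of the ID genes, ID4 and ID2 were thus called in opposite directions. ID1 and ID3 were not called, at 0.09 and -0.18 on the log2 scale. BMP6, SMAD6 and SMAD7 were also called higher, at 0.55, 0.43 and 0.31 (edgeR adjusted p = 0.000187, 0.00204 and 0.00572). SMAD9 was called lower, at -0.18 (edgeR adjusted p = 0.0324). With neighbour medians removed 1 gene of the list was called lower, and without knockout replicate 1 or without knockout replicate 2 the number called lower was 2.

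**Figure D4:**
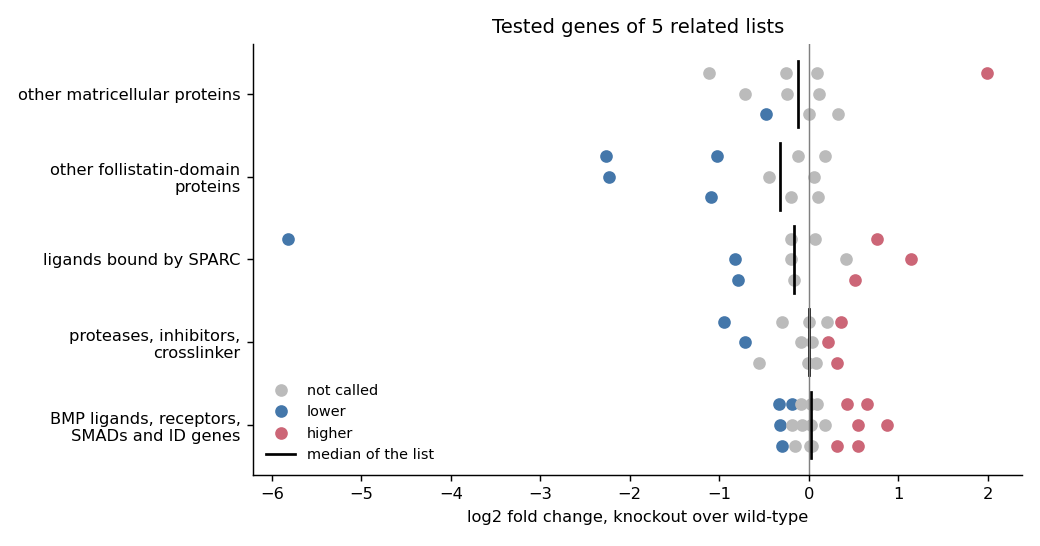
Log2 fold change (knockout over wild-type) of each tested gene in the 5 lists, coloured by its call, with a black line at the median of each list. TNC at 2.00 and COL2A1 at -5.82 are the outermost genes, and the medians lie between -0.32 and 0.03.

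The genes whose pattern was nearest to that of SPARC were sought among the 10982 tested genes that averaged at least 5 CPM, by the root mean square distance of log2 CPM over the 6 libraries, each gene set to its own wild-type mean. They were PTMAP5 at a distance of 0.13, SYTL5 at 0.22, DHRS2 at 0.30, the clone-named transcript RP11-438N16.1 at 0.44 and GABRQ at 0.53. SYTL5 encodes a synaptotagmin-like vesicle protein, DHRS2 a short-chain dehydrogenase and GABRQ a GABA receptor subunit. PTMAP5 is a processed pseudogene of PTMA, so its reads may belong to copies of that gene and its value is uncertain. DHRS2 stood at 3.95, 4.21 and 4.43 CPM in the wild-type libraries and at 23.9, 24.2 and 23.1 CPM in the knockout libraries (replicates 1 to 3 of each). All 5 were higher in each knockout library than in any wild-type library, which the choice by distance fixes.

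**Figure D5:**
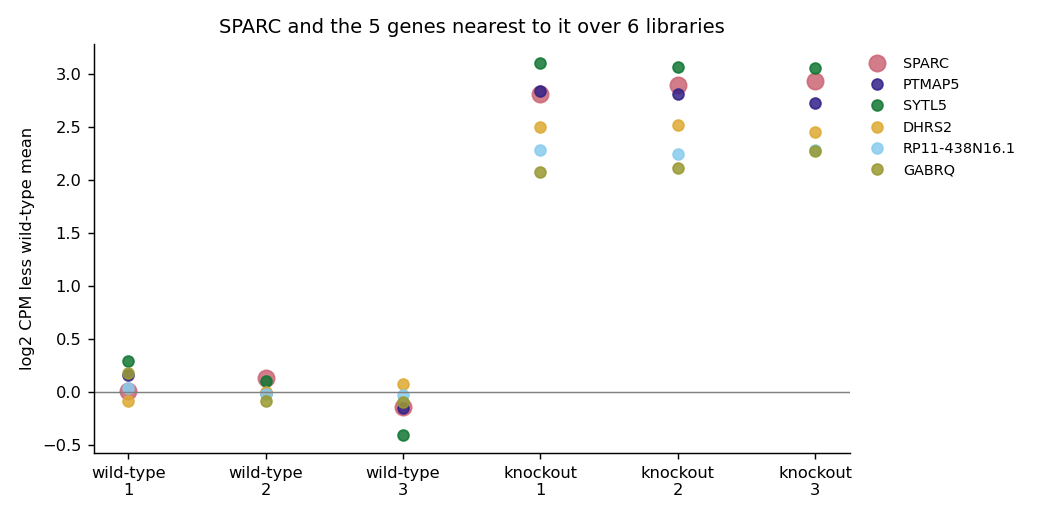
Log2 CPM less the gene's own wild-type mean in each of the 6 libraries for SPARC (large points) and the 5 genes nearest to it. SPARC and PTMAP5 lie between 2.72 and 2.94 in the knockout libraries, and GABRQ, the farthest of the 5, between 2.07 and 2.28.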

How the data were processed

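RNA of 3 wild-type and 3 SMARCA3 knockout HEK293T libraries was analysed from a deposited table of raw counts per gene symbol, whole numbers with 1 column per library, not normalized. Trim Galore, STAR 2.4, Picard, HTSeq 0.9.1, DESeq2 and hg38 are named, with no role or order, per the submitters' processing notes; the sources used here do not give the annotation release or the strand setting. Here the test was edgeR 4.0.16, run in R 4.3.3 (filterByExpr, TMM, quasi-likelihood F test, two-sided, Benjamini-Hochberg over 18061 genes, threshold 0.05, no covariate). Total counts were 33125811 to 41593655, and replicates differed by more than sampling noise. Alternatives were RLE size factors, 2 other filters on low counts, DESeq2 1.42.0, limma-voom (limma 3.58.1), a block for the replicate number, leaving out each library, and removal of the median of 40 neighbouring genes. Positions and exon lengths came from GENCODE 29 by symbol or former symbol, which placed 77.9% of the tested genes, and promoters from RefSeq GRCh38.p14. The procedure was tested on simulated data. Named genes are the 8 members, HLTF, the 5 genes nearest to SPARC and called genes of each list. In each list these were up to 3 in either direction, by smallest p, with at least 1 CPM. THBS1, THBS3, THBS4, CTGF, FST, FSTL3, COL1A1, VEGFA, PDGFB, MMP14, MMP2, ID1, ID3, TMEFF2, BMP6, SMAD6, SMAD7 and SMAD9 were added after their values were seen. So were the markers PAX2, EYA1 and NEFM. 1 marker of the HEK293 line is not reported here and was left out of its list. Members and lists were chosen with earlier results of these data known.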

Additional observations from a re-analysis of the deposited data

How the results depend on the processing

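SPARC had a log2 fold change of 2.84 to 2.98 over the 13 alternatives. It was chosen for its rise in these same libraries, so this range is a description and not a test. FSTL1 stayed called higher and SPOCK1 and SPOCK3 called lower in all 13. SPARCL1 and SPOCK2 were called in none of theirs (edgeR, DESeq2 or limma-voom adjusted p of at least 0.0683 and 0.0691). SMOC1 ran from -0.032 to 0.051 with each library left out, lowest without knockout replicate 3, and was 0.056 with neighbour medians removed, at no point called. HLTF turned to 0.034 (adjusted p = 0.656) with neighbour medians removed, a fit limited to the 14063 tested genes with a position. Same-numbered libraries did not deviate together (r = -0.23, -0.01 and -0.05), but whether they shared a preparation is not known. With the replicate block 1791 genes were called higher and 2441 lower, against 2532 and 3205 without it. The calls of the members did not change. No library correlated best with its own number. With each library left out, 1850 to 2881 genes were called higher and 2309 to 3275 lower. Other matricellular genes called lower were 2 with no filter on low counts and 1 to 2 with each library left out. Follistatin-domain genes called lower were 1 with at least 1 CPM required in 3 libraries. Proteases and inhibitors called higher were 1 with neighbour medians removed, and BMP genes called lower were then 1, and 2 to 4 with each library left out. The causes were not tested. Depth limits SMOC2 and the knockout level of SPOCK3, both near the floor of 3 counts.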
